A study of Mus musculus with 2 samples.

Results

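Peroxiredoxins and glutathione peroxidases are the enzymes that reduce hydrogen peroxide and organic hydroperoxides in mammalian cells, and 10 of their genes (Prdx1 to Prdx6 and Gpx1 to Gpx4) were examined for MAFK occupancy in mouse embryonic stem cells. Regions were assigned to a gene when their summit, the deposited point of highest signal, lay within 50 kb of any transcription start site (TSS) of that gene in GENCODE vM21. By this rule 24 of the 16865 regions of the optimal list, a deposited set of reproducible regions drawn from both replicates, belonged to the 10 genes, 15 of them to peroxiredoxins and 9 to glutathione peroxidases. MAFK was profiled by chromatin immunoprecipitation with sequencing (ChIP-seq) in ES-E14, the E14 line of embryonic stem cells, which was derived from a male embryo of mouse strain 129/Ola. The labels name 2 biological replicates of this 1 group, with 1 cell source for both, so their spread may be technical in part. The control experiment and any expression data were not analysed here, and read depth is unknown, since regions without read counts were used.

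Peroxiredoxins reduce peroxides with a reactive cysteine thiol and are mostly recycled by thioredoxin. Glutathione peroxidases take their electrons from glutathione, and Gpx1 to Gpx4 carry selenocysteine at the active site. MAFK is a small MAF protein, a basic leucine zipper factor with no activation domain of its own. It binds DNA as a homodimer or with partners of the CNC family such as NRF2 and BACH1, at sites known as antioxidant response elements (AREs) and MAF recognition elements, and peroxide-detoxifying genes are among the textbook targets of the NRF2 dimers.

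The sequence at the summit was read from the GRCm38.p6 reference (mm10) and is shown for most of the regions within 10 kb of a member TSS that held an ARE core, an AP-1 element or a T-MARE, and for the strongest region of each gene that had none within 10 kb. The windows are shown so that the kind of site can be compared between the genes. Each is given 5′ to 3′ on the strand of the gene and spans 101 bases centred on the summit, or 30 bases around the element where the window touches an untranslated region. Capitals mark the ARE core (TGACNNNGC or TGAGNNNGC), the AP-1 element (TGACTCA or TGAGTCA), the NFE2-type composite of both (TGACTCAGCA or TGAGTCAGCA) and the T-MARE (TGCTGACTCAGCA or TGCTGAGTCAGCA with at most 2 mismatches), searched on both strands and free to overlap.
Prdx1, 85 bp upstream, chr4:116685409-116685509, plus strand: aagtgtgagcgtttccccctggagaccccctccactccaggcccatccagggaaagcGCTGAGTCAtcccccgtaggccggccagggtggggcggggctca
Prdx1, 4814 bp upstream, chr4:116680680-116680780, plus strand: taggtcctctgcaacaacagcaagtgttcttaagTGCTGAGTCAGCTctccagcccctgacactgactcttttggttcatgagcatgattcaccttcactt
Prdx2, 253 bp upstream, chr8:84969289-84969318, plus strand: tttgtcgcTGCAGCGTCAGCAgctcccagg
Prdx4, 29544 bp upstream, chrX:155370248-155370348, minus strand: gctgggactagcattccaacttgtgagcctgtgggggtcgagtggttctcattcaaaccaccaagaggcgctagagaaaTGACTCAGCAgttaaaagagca
Prdx5, 12024 bp upstream, chr19:6922080-6922180, minus strand: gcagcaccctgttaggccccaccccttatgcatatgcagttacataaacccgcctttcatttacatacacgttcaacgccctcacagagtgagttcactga
Prdx6, 1725 bp downstream, chr1:161248779-161248879, minus strand: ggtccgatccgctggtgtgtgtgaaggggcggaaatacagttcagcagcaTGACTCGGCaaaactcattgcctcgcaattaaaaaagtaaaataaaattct
Prdx6, 3316 bp upstream, chr1:161254485-161254585, minus strand: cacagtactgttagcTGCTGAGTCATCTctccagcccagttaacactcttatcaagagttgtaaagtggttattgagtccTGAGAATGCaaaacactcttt
Gpx2, 17 bp upstream, chr12:76795491-76795520, minus strand: acctgttttttGCTAAGTCAtcccgggaat
Gpx3, 33242 bp downstream, chr11:54936118-54936218, plus strand: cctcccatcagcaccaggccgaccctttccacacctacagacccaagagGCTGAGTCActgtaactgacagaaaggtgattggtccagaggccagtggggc
Gpx4, 2944 bp upstream, chr10:80044172-80044272, plus strand: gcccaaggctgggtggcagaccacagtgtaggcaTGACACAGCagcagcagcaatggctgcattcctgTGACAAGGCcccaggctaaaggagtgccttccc
Gpx4, 1245 bp upstream, chr10:80052193-80052293, plus strand: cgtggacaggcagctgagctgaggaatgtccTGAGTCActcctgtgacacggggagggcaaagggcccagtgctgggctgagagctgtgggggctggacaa
Gpx1, 3031 bp downstream, not in the optimal list, chr9:108342257-108342357, plus strand: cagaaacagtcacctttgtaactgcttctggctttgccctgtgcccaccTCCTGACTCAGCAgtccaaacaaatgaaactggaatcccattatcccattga

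Of the 10 genes, 9 had at least 1 region within 50 kb, 6 had one within 10 kb and 3 had one within 1 kb of a TSS. Over the 21938 protein-coding genes of the annotation the shares were 59.3% within 50 kb, 26.9% within 10 kb and 8.66% within 1 kb, against 90%, 60% and 30% of the members. The members had a median of 4.5 annotated TSSs and all protein-coding genes a median of 3, and each further TSS widens the stretch that is searched. The median distance from a member gene to its nearest summit was 4956.5 bp, and 33148 bp over all protein-coding genes. All 6 peroxiredoxins had a region within 50 kb and 4 of them had one within 10 kb. Among the 4 glutathione peroxidases, 3 had a region within 50 kb and 2 had one within 10 kb.

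**Figure D1:**
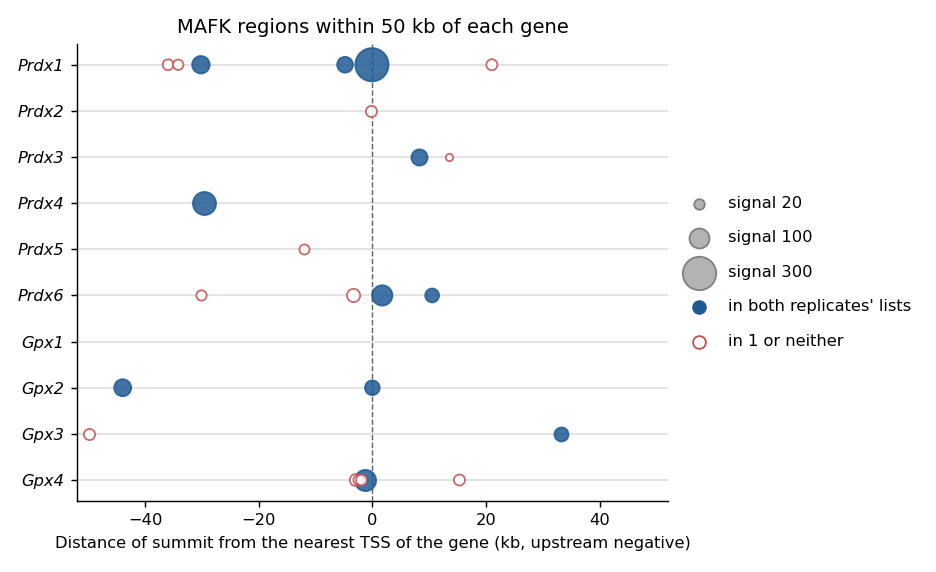
Summits of the 24 optimal regions by distance from the nearest TSS of the gene (x axis, kb, upstream negative), 1 row per gene. The area of a circle grows with the deposited signal, and filled circles are regions found in the thresholded lists of both replicates. Prdx1 has the largest circle at its TSS, and the Gpx1 row is empty.

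Prdx1, a cytosolic peroxiredoxin, had 6 regions and the strongest of the set. That region (chr4:116685304-116685588) had its summit 85 bp upstream of the TSS and a signal of 297.80, rank 103 of the 16865 optimal regions. Signal is the height score that the authors deposited for each region without stating its scale, so it is used here only to rank and describe regions. In the separate relaxed lists, which hold candidate regions of a replicate down to background and at most 300000 of them, the same position had a signal of 141.68 in replicate 1 and 154.24 in replicate 2. It ranked 145 of 264306 in the list of replicate 1 and 79 of 300000 in that of replicate 2. The medians of these lists were 2.82 and 3.43, values that weak member regions also exceeded. The window shown above holds an ARE core that overlaps an AP-1 element in the run GCTGAGTCA, and no T-MARE. RefSeq promoter windows (250 bases before to 50 after the start) were also searched, and 12 of them matched 9 of the 10 genes. Among these 12, only that of Prdx1 held a complete ARE core, whereas 27.8% of all 32851 such windows held one. The ARE core shown above for the Gpx2 summit lay across the downstream edge of the Gpx2 window and was not counted. The member count thus depended on where the windows end, and its difference from all windows was not tested.

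The other 5 Prdx1 regions were weaker, and 4 of them were nearer to another gene. The region 4814 bp upstream had a signal of 58.98, with 29.92 in replicate 1 and 27.90 in replicate 2, and its summit lay in repeat-masked sequence. It held the composite and a T-MARE with 1 mismatch. A region 30175 bp upstream, between genes and 3689 bp from a TSS of Akr1a1, an aldo-keto reductase, had a signal of 74.59 and differed between the replicates, with 47.41 in replicate 1 and 26.75 in replicate 2. It held no ARE core. Of the remaining 3, those 34163 and 35944 bp upstream lay in an untranslated region and an intron of Akr1a1 and that 21010 bp downstream lay in an untranslated region of Mmachc, with signals of 19.26, 21.86 and 23.26.

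Prdx2, the other typical cytosolic peroxiredoxin, had 1 region (chr8:84969186-84969481), with its summit 253 bp upstream of the TSS and a signal of 23.90, rank 10039. Its replicate signals were 8.84 and 11.25, and it was in neither replicate's thresholded list. The thresholded lists are shorter, come from a second processing run and are those left after the authors' reproducibility filter (IDR, the irreproducible discovery rate). The summit lay in an untranslated region of Rnaseh2a and 99 bp from a TSS of the gene model Gm49661, so the region cannot be given to Prdx2 alone. An ARE core was present within a T-MARE of 2 mismatches, centred 31 bp from the summit. Prdx1 and Prdx2 both had a summit within 1 kb of the TSS, but that of Prdx1 was in the thresholded lists of both replicates and that of Prdx2 in neither.

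Prdx3, the mitochondrial peroxiredoxin, had its stronger region in its own intron (chr19:60866220-60866515), 8188 bp downstream of the TSS and 4889 bp from a TSS of the neighbouring Sfxn4. The signal was 62.57, with 35.41 in replicate 1 and 29.35 in replicate 2, and the summit was repeat-masked. The second Prdx3 region, in an intron of Sfxn4, had a signal of 4.20, close to the lowest of the list (3.8). At that position replicate 1 had no region even in its relaxed list, and replicate 2 had a signal of 4.96.

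Prdx4, the peroxiredoxin of the endoplasmic reticulum, had a single region that ranked 816 of all optimal regions although it lay 29544 bp upstream of the TSS (chrX:155370206-155370399). Its signal was 137.53, and the replicates were close to each other at 68.49 and 66.96. No other protein-coding gene had a nearer TSS. Its best T-MARE match, with 3 mismatches and overlapping the composite, was centred 32 bp from the summit, which was repeat-masked.

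Prdx5, found in mitochondria, peroxisomes and cytosol, had the weakest leading region of the 9 genes that had one (chr19:6921982-6922277), at a signal of 17.57 and rank 13608. The replicates had signals of 7.05 and 11.60, and neither thresholded list held it. The region was 12024 bp upstream of Prdx5 but 317 bp from a TSS of Esrra, an orphan nuclear receptor gene. None of the 5 searched elements occurred in its window, so its sequence above carries no capitals.

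Prdx6, the 1-Cys peroxiredoxin that also has phospholipase activity, had 4 regions, and Prdx6 was the nearest protein-coding gene to all of them. The strongest (chr1:161248777-161248912) lay 1725 bp downstream of the TSS of a processed transcript and 2337 bp from that of a protein-coding transcript, in an annotated exon of Prdx6, and its signal of 104.41 ranked 1337. Replicate 1 had a signal of 45.68 and replicate 2 of 57.54. Its ARE core, TGACTCGGC, lay beside the summit without a T-MARE. The region 3316 bp upstream (chr1:161254387-161254682) was lower, at 37.69, with 14.19 in replicate 1 and 23.72 in replicate 2 in the relaxed lists. Of the thresholded lists only that of replicate 2 held it, at 26.06. The region 10504 bp downstream of the nearest TSS, had a signal of 42.99 and was in the lists of both replicates. The region 30064 bp upstream was the weakest, at 18.72, and was in neither, though its window held a T-MARE with 1 mismatch (TGCTGAATCAGCA).

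Gpx4, the peroxidase that reduces phospholipid hydroperoxides and restrains ferroptosis, had the strongest region of the glutathione peroxidases. It lay 1245 bp upstream of a TSS and within an intron of a longer Gpx4 transcript (chr10:80052147-80052306), with a signal of 114.82 and rank 1136. Replicate 1 had a signal of 41.39 and replicate 2 of 73.65, and both thresholded lists held the region. It contained an AP-1 element and no ARE core, the one case among the 6 strongest regions within 10 kb of a member. Another 3 regions lay within 10 kb of Gpx4, with signals of 21.24, 14.80 and 28.62, and none was in both thresholded lists.

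The Gpx4 region with a signal of 28.62 (chr10:80044074-80044369) had the lowest ratio of replicate 1 to replicate 2 signal, 0.13, among the 23 positions with a region in both relaxed lists. Its signal was 3.20 in replicate 1, near the median of that relaxed list, and 24.72 in replicate 2. It was in the thresholded list of replicate 2 and absent from that of replicate 1. It was also absent from the conservative list, which is from the same processing run as the optimal list but is not a subset of it. The distance of 2944 bp is to the TSS of a processed transcript, and the nearest TSS of a protein-coding transcript of Gpx4 was 9266 bp away. The last Gpx4 region, 15315 bp downstream and in an untranslated region of Sbno2, had a signal of 23.23.

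Gpx2, the glutathione peroxidase known from the gastrointestinal epithelium, had a summit 17 bp upstream of the TSS of a processed transcript, inside an untranslated region of its coding transcript (chr12:76795368-76795663). The signal was 49.58, with 22.14 in replicate 1 and 29.17 in replicate 2, and both thresholded lists held it. The ARE core at this summit sits in the run GCTAAGTCA on the strand of the gene. Its second region (chr12:76839338-76839633) was stronger, at 69.91, but lay 43932 bp upstream, in an intron of Fntb and 809 bp from a TSS of that gene. There the signals were 38.45 in replicate 1 and 30.19 in replicate 2. In the thresholded list of replicate 2 the order of the Gpx2 regions was the reverse, with 33.18 near the TSS and 28.75 in Fntb, so which of them was higher in that replicate depended on the list.

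Gpx3, the secreted plasma glutathione peroxidase, had no region within 10 kb. Its stronger region lay 33242 bp downstream, in an intron of Tnip1 (chr11:54936020-54936315), with a signal of 44.19 and replicate signals of 17.01 and 25.35. The other lay 49803 bp upstream in an intron of Lyrm7, with a signal of 24.01. It was the last region inside the distance limit, and the next inside it was the Gpx2 region at 43932 bp. Just outside the limit lay a region 50387 bp from Prdx6 with a signal of 103.34, one 51534 bp from Gpx3 with 14.76 and one 55492 bp from Prdx2 with 254.33.

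Gpx1, the abundant cytosolic glutathione peroxidase, was the member without an optimal region. The nearest optimal summit was 72241 bp from its TSS. The strongest candidate in the relaxed list of the pooled replicates (chr9:108342159-108342454) lay 3031 bp downstream of a Gpx1 TSS, between genes, and Gpx1 was the nearest protein-coding gene. Its pooled signal was 22.12, higher than that of 35.3% of the optimal regions, with 13.74 in replicate 1 and 7.56 in replicate 2. The conservative list held this region at rank 10782 of 16082. The optimal list, the list of both replicates from the second processing run, and the thresholded lists of both replicates did not. Its window held all 5 elements, the T-MARE with 1 mismatch. A second candidate, 37600 bp downstream and in an intron of Usp4 with a signal of 17.66, was in the conservative list and in the second-run list.

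Whether Gpx1 is counted thus depended on the list. On the assembled chromosomes, 2283 of 16055 conservative regions, 14.2%, overlapped no optimal region. Of the 11151 pooled relaxed regions with at least the Gpx1 signal, 251, or 2.25%, were missing from the optimal list. Of the 24 member regions, 22 were in the conservative list and 20 in the second-run list. The shares of all optimal regions in these lists were not computed, so the counts show nothing particular to the members.

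Across the 24 regions, 11 (45.8%) overlapped the thresholded lists of both replicates, by at least 1 bp, compared with 35.4% of all optimal regions. The 95% Wilson interval of the member share ran from 27.9% to 64.9%. It treats the 24 regions as independent, although several belong to the same gene and all come from 2 libraries. It is therefore a descriptive range and not a test. None was found in replicate 1 alone, 4 in replicate 2 alone and 9 (37.5%) in neither. Over the 16836 optimal regions on assembled chromosomes these counts were 1507, 2960 and 6407 (38.1%). The thresholded list of replicate 1 had 11 member regions among 7748, and that of replicate 2 had 15 among 9541. A signal of 40, chosen after the values were seen, separated them fully: all 11 regions above it were in both lists, and none of the 13 at or under it. Among all optimal regions 89.7% of those above 40 and 9.3% of the rest were in both.

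In the relaxed lists, which reach down to background, 23 of the 24 positions had a region in replicate 1 and 24 in replicate 2. The shares of all optimal regions found there were not computed, so these counts show nothing particular to the members. Summits of the 23 positions in the replicates were 4 to 82 bp apart, with a median of 17 bp. The Spearman correlation of signal over the 23 positions was 0.77, and 0.72 over the 11 in both thresholded lists. These are descriptions, since the positions share 2 libraries and the lists were processed separately. In replicate 1, Prdx1, Prdx4 and the Akr1a1-side region of Prdx1 had the highest signals. In replicate 2 the order was Prdx1, Gpx4 and Prdx4, so the strongest Prdx1 region led in both replicates and the order below it differed.

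**Figure D2:**
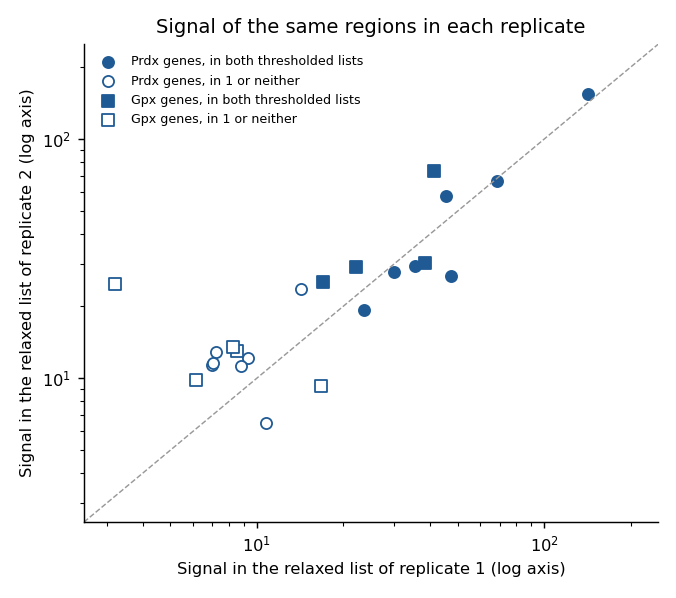
Signal of 23 member regions in the relaxed list of replicate 1 (x axis) and of replicate 2 (y axis), on log axes. Circles are peroxiredoxin regions, squares glutathione peroxidase regions, filled symbols regions in both thresholded lists, and the dashed line marks equal values. The square at 3.20 and 24.72 is the Gpx4 region 2944 bp upstream.

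By neighbouring genes, the member regions fell into 2 sets of 12. The 12 regions nearest to the member itself had a median signal of 46.28 (range 14.80 to 297.80), and 7 were in both thresholded lists. The 12 that were nearer to a TSS of another protein-coding gene had a median of 23.58 (range 4.20 to 74.59), and 4 were in both. In 7 of the latter the other gene's TSS was within 1 kb, as for Esrra beside Prdx5 and Fntb beside Gpx2. Each set had 8 regions with an ARE core. No region was within 50 kb of more than 1 member.

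Summits lay in introns for 9 regions, between genes for 9, in untranslated regions for 5 and in another exon for 1. Of the 24, 9 were within 1 kb of a TSS of any gene (15.3% of all optimal regions), and 6 had a repeat-masked summit (16.4% of all). The median signal of the member regions was 33.16 and that of all optimal regions 27.85, and 13 of the 24 were above the latter. The 15 peroxiredoxin regions had a median of 37.69, with 7 in both thresholded lists, and the 9 glutathione peroxidase regions had a median of 28.62, with 4 in both.

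An ARE core within 50 bp of the summit was present in 16 of the 24 regions (66.7%, 95% Wilson interval 46.7% to 82.0%), against 60.3% of all optimal regions. That interval too treats the regions as independent and is a descriptive range. The composite occurred in 5 (20.8%, all 28.2%), the AP-1 element in 10 (41.7%, all 37.8%) and the T-MARE in 7 (29.2%, all 39.2%). The MAF core TGCTGA occurred in 10 (41.7%), and in 62.8% of all optimal regions. In windows of the same length 1000 bp to either side of all summits the shares were 7.15% for the ARE core, 0.0891% for the composite, 1.81% for AP-1, 0.401% for the T-MARE and 7.29% for the MAF core. The members' shares were above those of the flanks for all 5 elements. Against all optimal regions they were slightly higher for the ARE core and AP-1 and lower for the composite, the T-MARE and the MAF core, differences that were not tested.

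**Figure D3:**
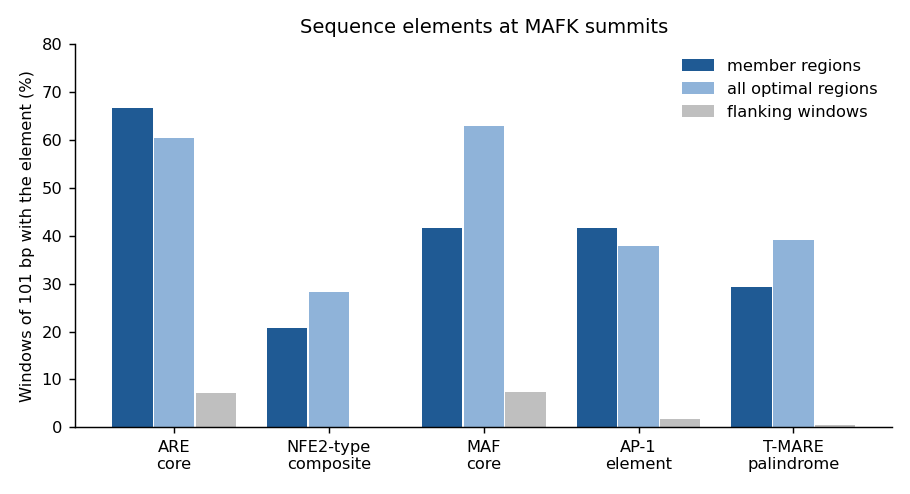
Share of 101-bp windows (y axis, %) that hold each element at the 24 member summits, at all 16836 optimal summits on assembled chromosomes and at flanking windows. The ARE core is the commonest element at member summits, at 66.7%, and the MAF core is at 41.7% in them against 62.8% in all optimal regions.

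Regions with an ARE core had a median signal of 43.59 (n = 16, range 21.86 to 297.80), and 9 of them were in both thresholded lists. Those without had a median of 18.99 (n = 8, range 4.20 to 114.82), and 2 were in both, namely the Gpx4 region at 1245 bp and the Akr1a1-side region of Prdx1. The same order held over all optimal regions, with medians of 32.75 and 22.47 and shares in both lists of 43.0% and 23.9%. Of the 5 member regions with none of the elements (18.4% of all optimal regions), the highest signal was 21.24 and none was in both lists. An ARE core was found in a region within 50 kb of 8 genes, all but Gpx1 and Prdx5, and in a region within 10 kb of 6. The share of all protein-coding genes with such a region was not computed. As 60.3% of all optimal regions hold the core, these counts show nothing particular to the members.

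Each window's best T-MARE match was found against the same consensus, so matches with few mismatches resemble each other by construction. Best T-MARE matches are written here on the plus strand of the genome. Among the windows shown, those at Prdx1 (4814 bp, TGCTGAGTCAGCT) and at Prdx4 (TGCTGAGTCATTT) were compared with the Prdx6 region at 3316 bp (AGATGACTCAGCA). Each differs by 1 base from the reverse complement of that Prdx6 match. The matches at Gpx2 (GGATGACTTAGCA near the TSS and CGCTGACTTAGCA in Fntb) differ from each other by 2. No member region held a complete T-MARE, which 2.1% of all optimal regions did. With up to 3 mismatches allowed, 12 member regions had a match, a median of 13 bp from the summit, and 61.9% of all optimal regions had one.

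The 27 partner genes, which recycle these enzymes, supply glutathione or selenocysteine, remove other oxidants or belong to the same families, were compared by the same rule. Regions within 10 kb were found at 17 of 27 (63%) and at 6 of the 10 members (60%), against 26.9% of all protein-coding genes. Regions within 50 kb were found at 24 of 27 (88.9%), against 59.3% of all protein-coding genes. The highest signal within 10 kb had a median of 92.90 over the 17 partner genes and of 83.49 over the 6 members, against 31.34 over all protein-coding genes with such a region. Within 50 kb the medians were 83.02, 69.91 and 40.81. All 4 genes of glutathione supply, all 4 of the sulfiredoxin and sestrin list and all 3 superoxide dismutases had a region within 10 kb, as did catalase. It was so for 2 of 5 thioredoxin system genes, 2 of 5 other family genes and 1 of 5 selenocysteine genes.

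The 6 partner genes with the highest signal within 10 kb were Txnrd1 (330.08), the cytosolic thioredoxin reductase, Gclc (301.25) and Gclm (180.96), the subunits of glutamate-cysteine ligase, Txn1 (176.24), cytosolic thioredoxin, Srxn1 (175.53), which repairs overoxidised peroxiredoxins, and Sesn3 (166.06), a sestrin. Only Prdx1 among the members reached these values. The strongest region within 10 kb held an ARE core in 14 of the 17 partner genes and in 5 of the 6 members, and was in both thresholded lists in 13 of 17 and 5 of 6. The exceptions among the members were Gpx4 for the element and Prdx2 for the lists. Over all optimal regions, strong or weak, the shares were 60.3% and 35.4%. Of those with a signal above 40, 89.7% were in both lists, so picking the strongest region raises that share. The same choice was not made for all protein-coding genes.

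**Figure D4:**
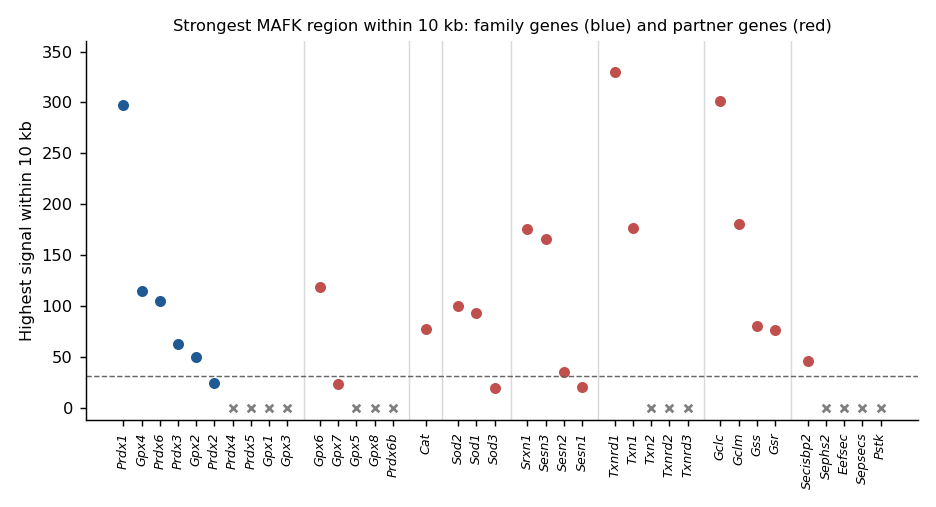
Highest signal of an optimal region within 10 kb of each member gene (blue) and partner gene (red, in the listed groups). Crosses at 0 mark genes with no region in that distance, and the dashed line is the median of 31.34 over protein-coding genes that have one. Prdx1 stands among the highest partner genes, Txnrd1 and Gclc, and 5 of the 6 member genes with a region lie above the line.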

How the data were processed

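MAFK ChIP-seq regions of 2 replicates were taken as deposited, on mm10. Aligner, peak caller and filters were not given in the sources used here. The lists come from 2 processing runs, per the labels: the relaxed, optimal and conservative lists are from one, and the replicates' thresholded lists and a list of both from the other, so overlaps between them cross runs. Signal is the deposited score of each region, whose scale is not stated. Summits were computed from the deposited offset, and coordinates are 1-based. The 29 optimal regions outside the assembled chromosomes stayed out of the sequence and gene counts.

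Regions were assigned to genes with GENCODE vM21, and elements were searched in 101 bp around the summit, by scripts checked on simulated data (Python 3.11.15, pandas 2.3.3, numpy 2.4.6). Lists overlapped from 1 bp. Backgrounds are the same counts over all protein-coding genes or optimal regions. With 1 group, no test between conditions was possible. All 10 members are named, each region within 10 kb and the strongest within 50 kb is described, and the 6 partner genes of highest signal are named. The sequence of 1 window is not reported here. The members and lists were chosen with earlier results of these data known.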

Additional observations from a re-analysis of the deposited data

How the results depend on the processing

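Of 40 alternative values, 27 stayed near the reported one: counts within 1.5 times of it, shares within its 95% Wilson interval, and the median signal within 1 SD (6.78) of the medians in the replicates' lists. The number of member genes with a region, 9 within 50 kb, ranged from 6 in a 10 kb window to 10. It was 10 in the conservative and second-run lists and in a 100 kb window. All these values met the rule, but the count cannot exceed the 10 members, so it could not fail upward. The value of 6 lay exactly at the limit of 1.5 times. The number of member regions, 24, was 11 in a 10 kb window, 41 in a 100 kb window and 13 among the strongest 50% of regions; with the list of a single replicate it was 11 (without replicate 2) and 15 (without replicate 1). Within 2 kb of a TSS there were 5 member genes in place of 3, and without either replicate there were 2. The share of member regions with the ARE core rose to 84.6% among the strongest 50% of regions, and was 90.9% without replicate 2 and 80% without replicate 1. The share found in both replicates was 95.8% in the relaxed lists and 84.6% among the strongest 50%. The relaxed lists reach down to background, and the share of all optimal regions found in both was not computed. The median signal was 24.0 in the conservative list, 49.6 in a 10 kb window and 62.6 among the strongest 50%. The cause was not tested, other than that narrower windows, single replicates and the stronger regions leave fewer regions by construction. With the list of either replicate alone, 7 member genes had a region within 50 kb. Shares over all protein-coding genes were computed only for the optimal list at 50, 10 and 1 kb. The gene counts for other lists and windows thus have no background and show nothing particular to the members.

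No paired analysis was possible because the series has 1 group. The 2 replicates give no spread beyond a pair of values, read depth is unknown, and a region near a gene does not show that MAFK acts on it.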

Other observations

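The windows of the Prdx1 region 4814 bp upstream and of the Prdx6 region 3316 bp upstream share the 11-base run CTCTCCAGCCC which overlaps the end of the element, a run chosen after the sequences were seen. It occurs in 198 optimal regions (1.18%) and in 0.297% of flanking windows. Among those 198 regions, 72.7% have a repeat-masked summit, against 16.4% of all optimal regions, and 85.9% hold an ARE core. Their median signal was 27.73, and that of the regions without the run 27.85.

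The region with the highest signal just beyond the distance limit, 55492 bp from Prdx2, had a signal of 254.33. The region 253 bp upstream of Prdx2, in an untranslated region of Rnaseh2a, had 23.90. Whether another gene is nearer to the former was not examined.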
